A study of Mus musculus with 12 samples.

Results

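The metallothioneins and the genes of the NRF2 antioxidant response were followed in retinas of mice with oxygen-induced retinopathy. The members were a fixed list of 10 genes, matched by symbol to 1 row each of the deposited table of 36131 genes. They are the metallothioneins Mt1 (ENSMUSG00000031765), Mt2 (ENSMUSG00000031762) and Mt3 (ENSMUSG00000031760), the NRF2 factor Nfe2l2 (ENSMUSG00000015839), and 6 NRF2 target enzymes. The enzymes are Hmox1 (ENSMUSG00000005413), Nqo1 (ENSMUSG00000003849), Gclc (ENSMUSG00000032350), Gclm (ENSMUSG00000028124), Txnrd1 (ENSMUSG00000020250) and Srxn1 (ENSMUSG00000032802). All 10 passed the filter on low counts.

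Retinas of 12 C57BL/6J wildtype mice at P18 were sequenced after polyA selection as 12 libraries, which fall into 3 groups of 4 animals. RA-PBS mice (animals 1 to 4) stayed in room air and received placebo PBS. O2-PBS mice (animals 5 to 8) were kept in 75% O2 from P7 to P12, with their nursing mothers, before return to room air and received PBS. O2-IC100 mice (animals 9 to 12) had the same oxygen exposure and received IC100, a humanized antibody against the inflammasome adaptor ASC, at 10 µg/g into the peritoneum at P12, P14 and P16. All animals share the genotype, and IC100 was compared within oxygen-exposed mice and against room air mice with PBS. The paper describes its PBS placebo as given into the vitreous. Where that holds for these animals, the route of injection and IC100 cannot be told apart. The labels do not give litters, so the p-values measure the spread between these animals.

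Metallothioneins are small cysteine-rich proteins that bind zinc and copper. Mt1 and Mt2 are induced through metal response elements by the zinc-sensing factor MTF1, and also by glucocorticoids and oxidants. Mt3 is largely a nervous system gene and is less inducible. NRF2, encoded by Nfe2l2, is held in the cytoplasm and degraded with the help of KEAP1 until oxidants or electrophiles release it, and it then binds antioxidant response elements with small MAF partners. Because this control acts on the protein, the mRNA of its target enzymes is usually read as the output of the pathway. In the retina, Muller glia, endothelium and pigment epithelium are known for these responses. In bulk tissue, fewer cells of a type and less RNA per cell cannot be told apart.

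The start regions of the metallothionein genes are shown because Mt1 and Mt2 varied together across retinas and Mt3 did so less. Each line is the RefSeq sequence (GRCm38.p6) from 250 bases before to 30 bases after the gene's start, at chr8:94178839-94179118 for Mt1, chr8:94172368-94172647 for Mt2 and chr8:94152357-94152636 for Mt3, all on the + strand. Capitals mark matches on either strand to the metal response element (TGCACNC or TGCGCNC) or to the antioxidant response element (TGACNNNGC).
Mt1: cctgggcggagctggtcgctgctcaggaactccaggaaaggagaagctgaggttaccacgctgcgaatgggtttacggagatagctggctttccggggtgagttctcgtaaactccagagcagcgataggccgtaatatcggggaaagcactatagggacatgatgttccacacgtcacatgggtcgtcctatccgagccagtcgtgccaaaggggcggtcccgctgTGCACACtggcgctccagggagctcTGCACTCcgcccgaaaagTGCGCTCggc
Mt2: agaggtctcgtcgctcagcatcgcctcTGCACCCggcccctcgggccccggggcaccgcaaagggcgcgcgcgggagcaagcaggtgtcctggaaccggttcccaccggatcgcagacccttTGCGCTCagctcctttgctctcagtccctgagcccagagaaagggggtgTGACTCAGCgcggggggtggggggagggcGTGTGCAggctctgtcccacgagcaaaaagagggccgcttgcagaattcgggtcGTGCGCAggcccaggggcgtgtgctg
Mt3: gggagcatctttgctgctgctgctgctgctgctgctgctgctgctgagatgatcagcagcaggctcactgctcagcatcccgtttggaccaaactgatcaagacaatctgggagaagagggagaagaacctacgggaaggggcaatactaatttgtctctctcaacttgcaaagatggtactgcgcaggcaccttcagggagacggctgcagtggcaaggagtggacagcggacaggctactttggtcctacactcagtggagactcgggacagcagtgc
The Mt1 window held 3 metal response element matches and no antioxidant response element match. Bases outside these windows were not searched, so matches further after the start used here would be missed. Mt2 held 4 of the first and 1 of the second, which did not overlap each other. The Mt1 matches TGCACTC and TGCGCTC lie after the annotated start used here, as does the last Mt2 match (GTGCGCA as printed). Other starts of these genes were not searched. The Mt3 window held neither. Of 32851 RefSeq windows of this length, 24.1% held at least 1 metal response element match, 1.73% at least 3 and 0.405% at least 4, and 11.5% held an antioxidant response element match. Among the 8 members with an entry, Nfe2l2, Gclm and 1 of 3 Txnrd1 windows also held an antioxidant response element match, and the windows of Nqo1 and Srxn1 held none. Gclm held 2 and Srxn1 held 1 metal response element match, and the Gclm antioxidant response element match overlapped one of the former. Hmox1 and Gclc were not searched. A match is a description of letters in this window and not a tested binding site.

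Levels are given as normalized CPM, the counts of a gene scaled to a common library size by TMM, the trimmed mean method of edgeR. Differences were tested with edgeR's quasi-likelihood test and Benjamini-Hochberg adjustment over all genes tested, are given on the log2 scale ± SE, and passed at a fold change of at least 1.5, p under 0.05 and adjusted p under 0.1. Total counts were 14906970 to 24437916 per library, and 3 counts corresponded to 0.144 to 0.379 CPM. Rod photoreceptor markers summed to 34400 to 41000 CPM in 11 libraries and to 9780 CPM in O2-IC100 animal 10. In that library 9 lens markers took 33.2% of all counts, its TMM factor was 0.3244 against 1.069 to 1.149 in the others, and its pigment epithelium and erythrocyte markers were also the highest. The lens markers reached 0.709%, 2.66% and 0.812% of counts in RA-PBS animals 2, 3 and 4, against at most 0.00721% in RA-PBS animal 1, the O2-PBS libraries and the remaining O2-IC100 libraries. RA-PBS animal 4 also stood apart in 5 myelin genes, a list added after the data were seen, with 4970 summed CPM against 29.1 to 40.6 in the other 10 libraries without animal 10. Y-linked genes were high in RA-PBS animals 1, 2 and 3, O2-PBS animal 8 and O2-IC100 animals 9, 11 and 12, and low in the other 5 libraries. This level was uneven over the groups, so it cannot be fully told apart from group in comparisons with O2-PBS. The low TMM factor of animal 10 raises all its CPM. Nfe2l2 had 389 counts there, against 448, 581 and 522 in O2-IC100 animals 9, 11 and 12, whose totals were lower. Txnrd1 had 852 counts against 821, 806 and 868. Mt1, Mt2, Mt3, Hmox1, Nqo1, Gclc and Gclm had more counts in animal 10 than in any of those libraries. Counts of members that passed, and the plot of log2 fold changes, are given with and without animal 10. Single differences in the text are from the fit without animal 10 unless stated, and many had a larger SE with it. The plot of member levels by animal shows animal 10 as an open symbol.

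**Figure D1:**
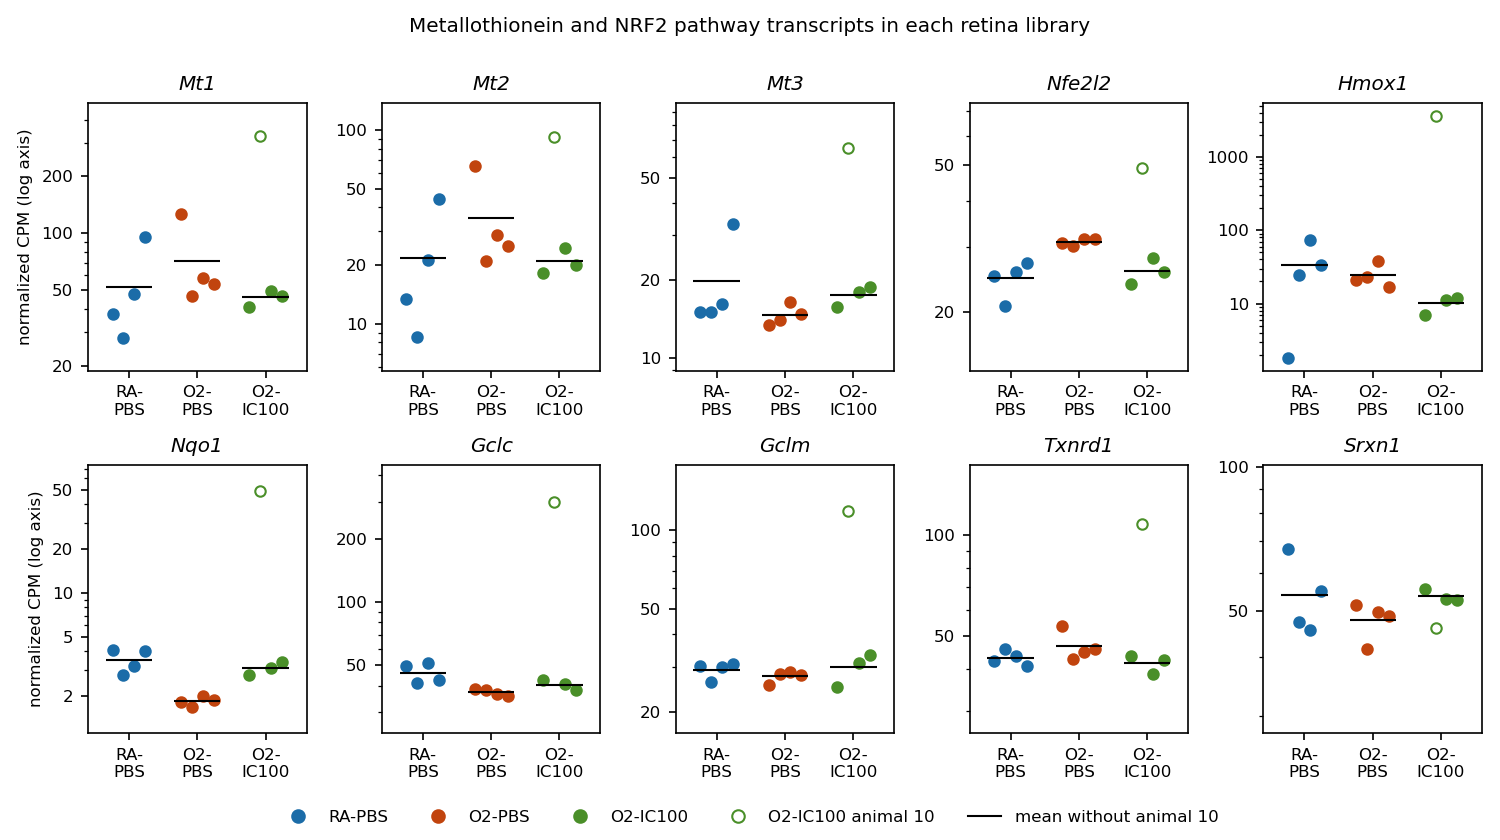
Normalized CPM (log axis, a separate range for each gene) of the 10 members in each of 12 retina libraries, by group, with the open circle for O2-IC100 animal 10 and bars for group means without it. The 4 O2-PBS values of Nqo1 (1.67 to 1.98 CPM) lie below all RA-PBS values (2.75 to 4.09 CPM). Animal 10, whose CPM depend on its low TMM factor, is above its group in 9 of the 10 genes.

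No metallothionein passed the test in any comparison, and the groups overlapped in each. Mt1 was 37.4, 28.1, 47.6 and 95.9 CPM in RA-PBS animals 1 to 4, 126, 46.4, 58.4 and 53.7 CPM in O2-PBS animals 5 to 8, and 41, 327, 49.8 and 46.8 CPM in O2-IC100 animals 9 to 12. The highest value in each group came from 1 animal, and the remaining 3 were at most 58.4 CPM in each group. Without animal 10, the log2 difference of O2-PBS from RA-PBS was 0.44 ± 0.42 (SE, edgeR adjusted p = 0.598), and that of O2-IC100 from O2-PBS was -0.61 ± 0.46 (edgeR adjusted p = 0.468). Leaving out O2-PBS animal 5 or RA-PBS animal 4, among other single animals, moved the first of these between 0.02 and 0.91, and no setting passed the test.

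Mt2 was 13.4, 8.55, 21.4 and 44.3 CPM in RA-PBS, 65.5, 21, 28.9 and 25.3 CPM in O2-PBS, and 18.3, 92.5, 24.6 and 20.2 CPM in O2-IC100. The same animals as for Mt1 (4, 5 and 10) were the highest of their groups, and the ranges overlapped. The log2 difference of O2-PBS from RA-PBS was 0.68 ± 0.52 (edgeR adjusted p = 0.503) without animal 10, 1.29 without RA-PBS animal 4 as well and 0.2 without O2-PBS animal 5 as well. That of O2-IC100 from O2-PBS was -0.72 ± 0.57 (edgeR adjusted p = 0.492), and without O2-PBS animal 5 it was -0.25 for Mt2 and -0.2 for Mt1. Over the 11 libraries, the log2 levels of Mt1 and Mt2 had a Pearson r of 0.98 and a Spearman rho of 0.99, and r was 0.99 over the 9 libraries left without animals 4 and 5. Mt2 was the gene most like Mt1 among all 16688 genes tested, as a description over libraries that share groups. Per kilobase of median protein-coding transcript, the mean level over the 11 libraries was 90.6 CPM for Mt1, 58.9 CPM for Mt2 and 36.4 CPM for Mt3.

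**Figure D2:**
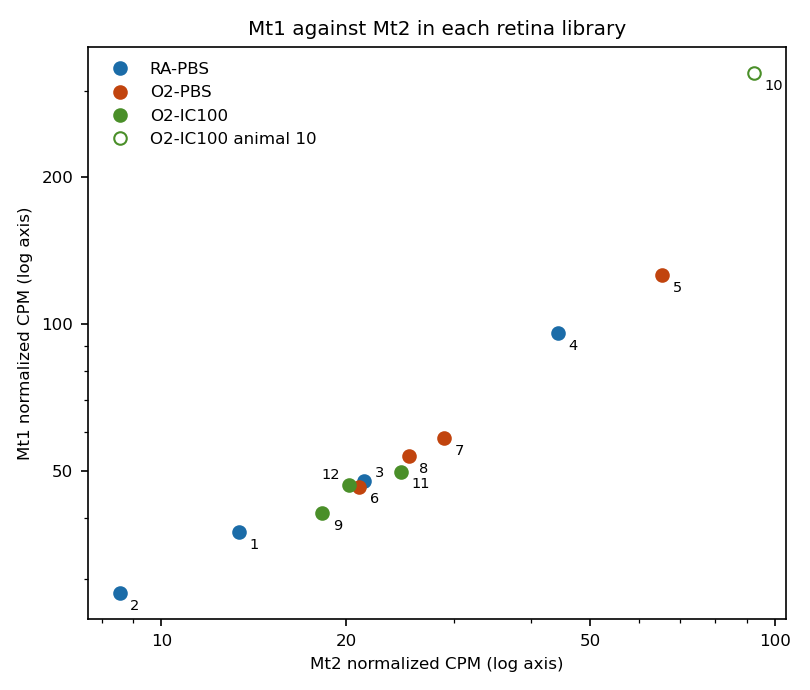
Normalized CPM of Mt1 against Mt2 (both log axes) in each of 12 retina libraries, coloured by group and numbered by animal. Both rise together from animal 2 (28.1 and 8.55 CPM) to animal 5 (126 and 65.5 CPM), and animal 10 lies beyond (327 and 92.5 CPM) with the highest ratio of Mt1 to Mt2 (3.53, against 1.92 in animal 5).

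Mt3 was 15.1, 15.1, 16.2 and 33.2 CPM in RA-PBS, 13.4, 14.1, 16.5 and 14.8 CPM in O2-PBS, and 15.8, 64.9, 18.1 and 18.9 CPM in O2-IC100. Apart from RA-PBS animal 4 and animal 10, all libraries lay between 13.4 and 18.9 CPM. The log2 difference of O2-PBS from RA-PBS was -0.44 ± 0.22 (edgeR adjusted p = 0.277) without animal 10, and -0.07 ± 0.11 (edgeR adjusted p = 0.763) without the myelin-rich RA-PBS animal 4 as well. Its Pearson r over 11 libraries was 0.33 with Mt1 and 0.29 with Mt2. Reactive glia markers, where metallothioneins are known to be expressed, summed to 185 to 600 CPM in RA-PBS, 542 to 858 CPM in O2-PBS and 296 to 394 CPM in O2-IC100 without animal 10. Within RA-PBS and within O2-PBS the highest sum was in the animals highest in Mt1 and Mt2 (600 CPM in animal 4 and 858 CPM in animal 5). In O2-IC100 without animal 10 it was in animal 12 (394 CPM), while Mt1 and Mt2 were highest in animal 11. In the myelin-rich animal 4, Gfap alone made up 288 CPM of the reactive glia sum, against 10.4 to 40.9 CPM in the other RA-PBS animals. Erythrocyte markers were highest in animal 4 of RA-PBS (259 CPM) and animal 5 of O2-PBS (227 CPM). In O2-IC100 without animal 10 they were highest in animal 11 (130 CPM). The part of either marker list in the metallothionein levels was not tested.

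Nfe2l2 mRNA was slightly higher in every O2-PBS retina than in any RA-PBS retina. It was 25, 20.7, 25.6 and 27.1 CPM in RA-PBS, 30.6, 30.2, 31.5 and 31.5 CPM in O2-PBS, and 23.8, 49.1, 27.9 and 25.6 CPM in O2-IC100. Without animal 10, the O2-IC100 values fell within or near the RA-PBS range and below all O2-PBS values. The log2 difference of O2-PBS from RA-PBS was 0.33 ± 0.1 (1.26-fold, edgeR adjusted p = 0.0498), under the fold change of 1.5 that the test required. For O2-IC100 against O2-PBS it was -0.25 ± 0.1 (edgeR adjusted p = 0.232), and with animal 10 it was 0.03 ± 0.21 (edgeR adjusted p = 0.953). Endothelial markers had the same order, at 178 to 263 CPM in RA-PBS, 377 to 429 CPM in O2-PBS and 282 to 315 CPM in O2-IC100 without animal 10, and their part in the Nfe2l2 level was not tested.

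Nqo1, which encodes a quinone reductase and is a standard readout of NRF2, was the only member to pass the test in any comparison. It was 4.09, 2.75, 3.16 and 4 CPM in RA-PBS, 1.81, 1.67, 1.98 and 1.88 CPM in O2-PBS, and 2.77, 49.4, 3.07 and 3.38 CPM in O2-IC100. Every O2-PBS retina was below every retina of both other groups. These levels rest on 57 to 76 counts per RA-PBS library, 30 to 35 per O2-PBS library and 52 to 69 per O2-IC100 library without animal 10.

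Without animal 10, Nqo1 fell in O2-PBS to a mean of 1.84 ± 0.131 CPM (SD, n = 4) from 3.5 ± 0.652 CPM (SD, n = 4) in RA-PBS. The log2 fold change was -0.93 ± 0.2 (0.524-fold, edgeR adjusted p = 0.0129), lower in 4 of 4 animals. Of all 16688 genes tested in this comparison 6.27% passed, and 2.18% passed as lower. The same log2 fold change of -0.93 had an SE of 0.85 when animal 10 was in the fit (edgeR adjusted p = 1), and with the lens covariate in that fit the difference turned to 0.17 ± 0.62 (edgeR adjusted p = 0.889). In O2-IC100 without animal 10 the mean was 3.07 ± 0.307 CPM (SD, n = 3), and the log2 difference from O2-PBS was 0.76 ± 0.22 (1.69-fold, edgeR adjusted p = 0.131), which did not pass. It passed in the fit of only the O2-PBS and O2-IC100 groups (0.75 ± 0.21, edgeR adjusted p = 0.0184) and with DESeq2 (0.74 ± 0.26, DESeq2 adjusted p = 0.0655). Against RA-PBS the O2-IC100 difference was -0.17 ± 0.21 (edgeR adjusted p = 0.732).

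Pigment epithelium markers moved with Nqo1 in part. They summed to 113, 253, 318 and 276 CPM in RA-PBS, to 52.1 to 135 CPM in O2-PBS and to 147 to 157 CPM in O2-IC100 without animal 10, and 6 of 8 fell in O2-PBS against RA-PBS. RA-PBS animal 1, at 113 CPM of these markers, lay inside the O2-PBS range and had the highest Nqo1 of its group. In animal 10 both were far above all other libraries (7850 CPM and 49.4 CPM). Nqo1 was also low in O2-PBS animal 8, in which Y-linked genes were high. With a Y-linked covariate, Nqo1 in O2-PBS against RA-PBS passed without animal 10 but not with all 12 animals (-1.72 ± 0.66, edgeR adjusted p = 0.427). The part of pigment epithelium or of Y-linked genes in the Nqo1 level was not tested.

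The genes most like Nqo1 over the 11 libraries, each with a Pearson r of 0.97 between log2 levels among 16688 genes, were Gria4, a glutamate receptor subunit, Necab1, a neuronal calcium-binding protein, and Ctnna2, the neuronal alpha catenin. Gria4 had means of 110 ± 12.3 CPM (SD, n = 4) in RA-PBS, 81.6 ± 5.4 CPM (SD, n = 4) in O2-PBS and values of 100 to 106 CPM in the 3 O2-IC100 animals. These libraries share groups, so the likeness is a description. In animal 10, where Nqo1 was high, Necab1 (123 CPM against 47.3 to 78.1 CPM in the others) and Ctnna2 (278 CPM against 35 to 60.2 CPM) were high too, while Gria4 was low (5.68 CPM).

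Hmox1 encodes the inducible heme oxygenase, which degrades heme. Its level was higher where lens markers were higher among the libraries that held them. It was 1.8, 24.8, 72.6 and 33.3 CPM in RA-PBS, 21, 22.7, 37.5 and 16.7 CPM in O2-PBS, and 6.92, 3680, 11.3 and 11.8 CPM in O2-IC100. RA-PBS animal 1 was the lowest of all libraries, and animal 10 the highest by far.

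Summed lens markers were 4.99, 6560, 24900 and 7610 CPM in RA-PBS animals 1 to 4. Per 1000 CPM of these markers, Hmox1 was 3.78, 2.92 and 4.38 CPM in RA-PBS animals 2, 3 and 4 and 3.6 CPM in animal 10. Those 4 libraries held Hmox1 and lens markers in a similar ratio over a wide range of lens content. In the 8 lens-poor libraries the same quantity was 350 to 15400 CPM. Pigment epithelium markers had the same order as Hmox1 in RA-PBS animals 1 to 4 (113, 253, 318 and 276 CPM). They were also highest in animal 10 (7850 CPM). In O2-PBS animals 5 to 8 their order differed from that of Hmox1 (84, 130, 52.1 and 135 CPM). The part of lens or of pigment epithelium in the Hmox1 level was not tested.

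**Figure D3:**
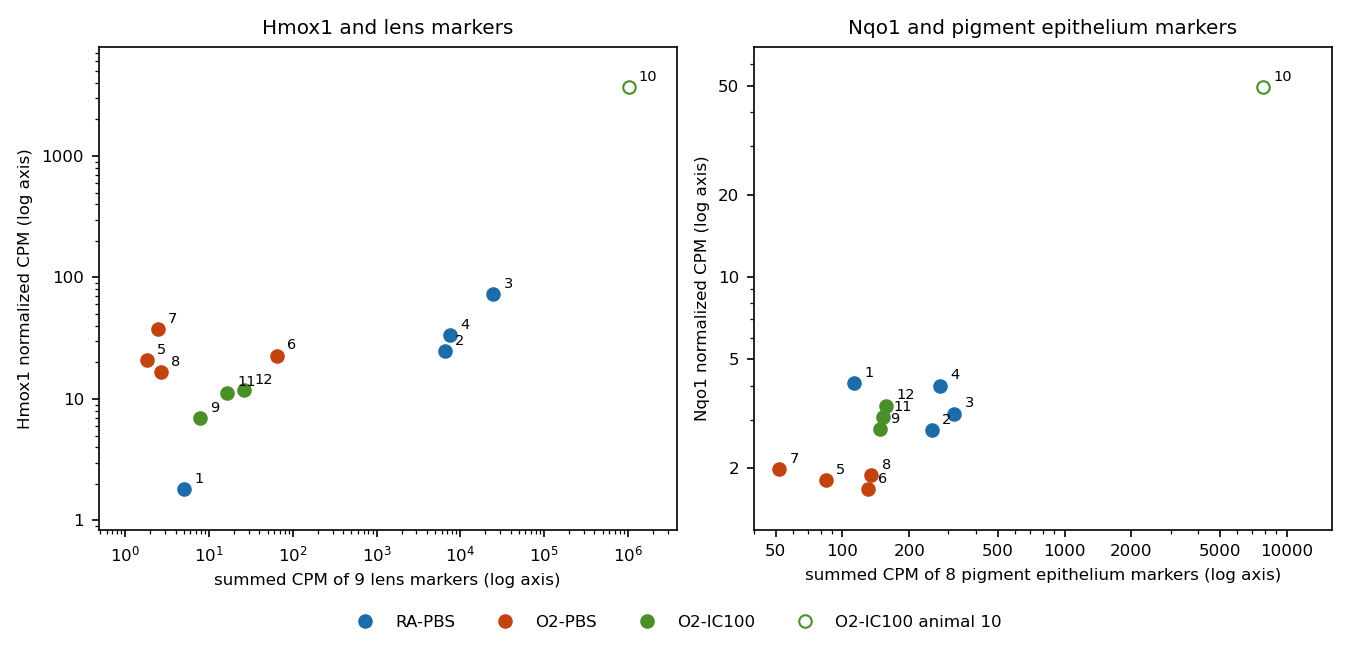
Left, Hmox1 against 9 summed lens markers, and right, Nqo1 against 8 summed pigment epithelium markers, as normalized CPM on log axes in each of 12 retina libraries numbered by animal. On the left RA-PBS animals 2, 3 and 4 and O2-IC100 animal 10 rise together (24.8 to 3680 CPM of Hmox1), whereas O2-PBS retinas have 16.7 to 37.5 CPM at low lens content. On the right RA-PBS animal 1 (113 CPM of markers, 4.09 CPM of Nqo1) lies above the O2-PBS points.

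As fitted without animal 10, Hmox1 differed between O2-PBS and RA-PBS by -0.43 ± 0.77 on the log2 scale (edgeR adjusted p = 0.789). Its sign depended on the setting. It was 0.29 ± 0.74 without RA-PBS animal 3, the most lens-rich of its group (edgeR adjusted p = 0.833), and 0.33 ± 0.79 with limma voom (limma adjusted p = 0.835). With the lens markers as a covariate the log2 difference was 3.15 ± 0.9 (edgeR adjusted p = 0.0401), and without RA-PBS animals 2, 3 and 4 it was 3.75 ± 0.74 (edgeR adjusted p = 0.0118). The lens covariate and the fit without these 3 animals were added after the data were seen, and the latter leaves RA-PBS animal 1 alone in its group, with its spread assumed to be that of the other groups. Lens content and room air cannot be told apart in the other 3 RA-PBS retinas.

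Among the oxygen-exposed retinas, which were lens-poor apart from animal 10, all 3 O2-IC100 values of Hmox1 lay below all 4 O2-PBS values, at means of 10 ± 2.69 CPM (SD, n = 3) and 24.5 ± 9.04 CPM (SD, n = 4). The log2 difference was -1.27 ± 0.88 (0.414-fold, edgeR adjusted p = 0.436) and did not pass. It passed in 3 of 23 alternatives. These were the fit of these groups alone (-1.28 ± 0.36, edgeR adjusted p = 0.0502), the lens covariate (-1.88 ± 0.5, edgeR adjusted p = 0.0921) and the fit without RA-PBS animals 2, 3 and 4 (-1.27). With animal 10 the difference had the opposite sign (5.24 ± 1.97, edgeR adjusted p = 0.287). Microglia and macrophage markers, which mark cells known to express Hmox1, summed to 51.7 to 68.1 CPM in O2-PBS and 58.8 to 75.2 CPM in O2-IC100 without animal 10.

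Gclc and Gclm encode the catalytic and modifier subunits of glutamate-cysteine ligase, the rate-limiting enzyme of glutathione synthesis. Gclc was 49.6, 41.2, 51.5 and 42.4 CPM in RA-PBS, 38.7, 38.3, 36.5 and 35.8 CPM in O2-PBS, and 42.7, 299, 40.9 and 38.1 CPM in O2-IC100. All O2-PBS values were below all RA-PBS values. The log2 difference without animal 10 was -0.31 ± 0.09 (0.807-fold, edgeR adjusted p = 0.0465), under the required fold change. Against O2-PBS the O2-IC100 retinas differed by 0.14 ± 0.1 (edgeR adjusted p = 0.428).

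Gclm was 30.1, 26.2, 29.8 and 30.6 CPM in RA-PBS, 25.4, 28.2, 28.5 and 27.8 CPM in O2-PBS, and 25, 119, 31 and 33.3 CPM in O2-IC100. Its groups overlapped in all 3 comparisons, and the subunits of this enzyme had a Pearson r of 0.19 over 11 libraries. The log2 difference of O2-PBS from RA-PBS was -0.09 ± 0.1 (edgeR adjusted p = 0.663). Gclm was the only member whose counts were not whole numbers (to 0.01) in any library, and its level is an estimate in that sense.

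Neither member of the thioredoxin arm, which reduces oxidized protein thiols, passed the test in any comparison. Txnrd1, the cytosolic thioredoxin reductase, was 42.3, 45.8, 43.7 and 40.8 CPM in RA-PBS, 53.7, 42.9, 45 and 45.8 CPM in O2-PBS, and 43.7, 108, 38.7 and 42.6 CPM in O2-IC100. Srxn1, the sulfiredoxin that restores overoxidized peroxiredoxins, was 67.4, 47.4, 45.6 and 54.9 CPM in RA-PBS, 51.3, 41.5, 49.6 and 48.6 CPM in O2-PBS, and 55.4, 46, 52.9 and 52.5 CPM in O2-IC100. RA-PBS animal 1 was the highest for Srxn1, and animal 10, at 46 CPM, was the lowest of its group there, unlike in the other 9 members. The log2 difference of O2-PBS from RA-PBS was 0.12 ± 0.08 for Txnrd1 (edgeR adjusted p = 0.45) and -0.18 ± 0.12 for Srxn1 (edgeR adjusted p = 0.42). That of O2-IC100 from O2-PBS was -0.15 ± 0.09 for Txnrd1 (edgeR adjusted p = 0.351) and 0.18 ± 0.13 for Srxn1 (edgeR adjusted p = 0.426).

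Across the 10 members, 1 passed the test between O2-PBS and RA-PBS without animal 10, against 6.27% of all genes. Without animal 10, O2-PBS and RA-PBS did not overlap in 3 of 10 members (Nfe2l2 higher, Nqo1 and Gclc lower), against 14.4% of all genes (7.81% higher, 6.63% lower), and those same 3 had an edgeR adjusted p under 0.1 at any fold, against 12.4% of all genes. The same 3 had an unadjusted p under 0.05, against 21.9% of all genes. The median log2 difference was 0.44 over the metallothioneins and -0.24 over the 6 enzymes, beside -0.007 over all genes tested. For O2-IC100 against O2-PBS, 0 of 10 passed by edgeR, against 0.947% of all genes, with 2 of 10 at an unadjusted p under 0.05 (Nqo1 and Nfe2l2), against 19.2% of all genes. Groups did not overlap in 4 of 10 (Nqo1 and Srxn1 higher, Nfe2l2 and Hmox1 lower), against 35.6% of all genes (18.2% higher, 17.4% lower). For O2-IC100 against RA-PBS, 0 of 10 passed, against 1.56% of all genes, with 0 of 10 at an unadjusted p under 0.05, against 15.6%, and groups overlapped in all 10 where 10.7% of all genes did not overlap. DESeq2 called 1 (Nqo1) for O2-IC100 against O2-PBS and 0 for O2-IC100 against RA-PBS. The comparisons share groups and are not independent of each other.

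With animal 10 in the fit, no member passed in any of the 3 comparisons, and the share of all genes that passed was 0.807% for O2-PBS against RA-PBS and 0 for both comparisons of O2-IC100. At an unadjusted p under 0.05 there were 0, 5 and 2 members in these 3 comparisons, against 7.12%, 16.9% and 13.2% of all genes. DESeq2 called 0 in each, but it gave no p there for Mt1, Hmox1, Nqo1 and Gclc, so it could not have called these. The 5 were Mt3, Hmox1, Nqo1, Gclc and Gclm, and all were highest in animal 10.

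**Figure D4:**
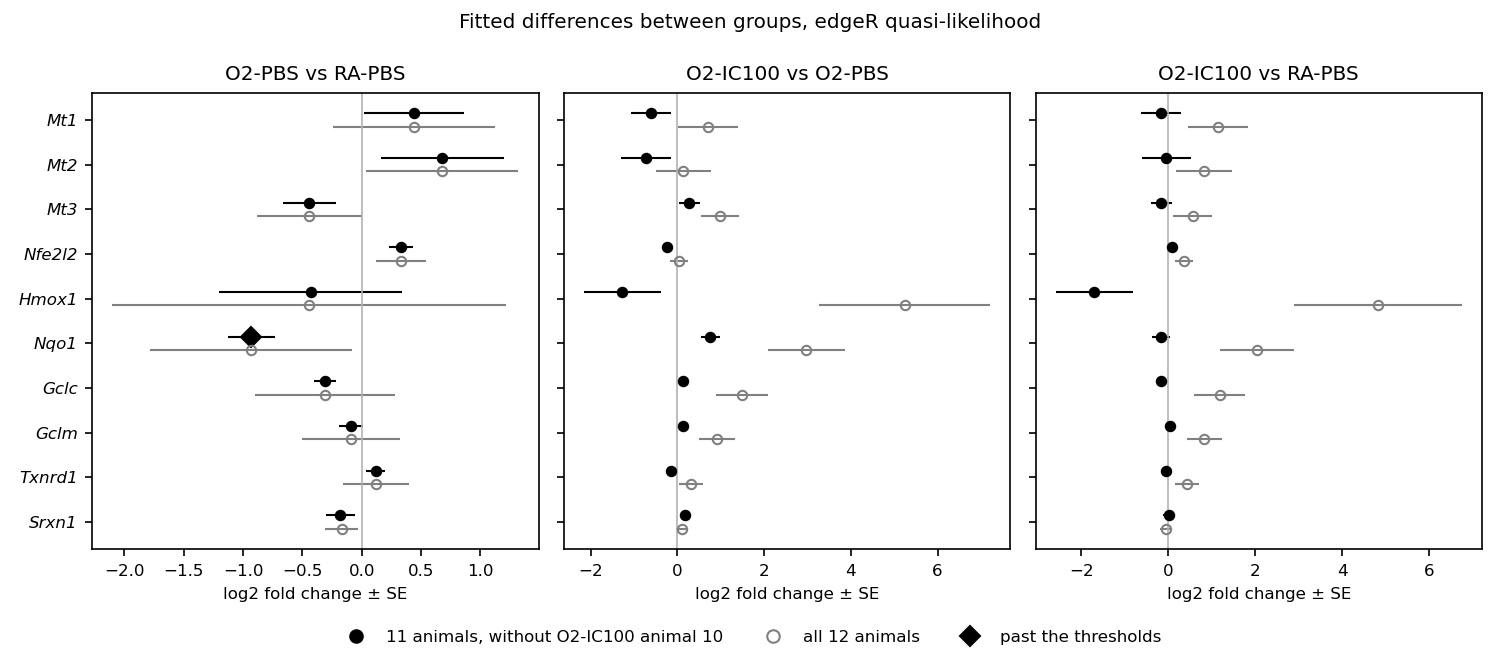
Log2 fold change ± SE of the 10 members in 3 comparisons (panels, with different ranges), with filled symbols for the fit of 11 animals without O2-IC100 animal 10 and open symbols for all 12 animals. The diamond marks Nqo1 (-0.93 ± 0.2), the only value past the thresholds, and adding animal 10 moves Hmox1 in O2-IC100 against O2-PBS from -1.27 to 5.24.

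The wider pathway was followed in 8 further lists of 74 genes, 71 of which were tested. Without animal 10, 4 rose and 2 fell in O2-PBS against RA-PBS, and the median log2 difference of the 71 was -0.11. The 6 are 8.45% of those tested, beside 6.27% of all genes. None of 11 thioredoxin and peroxiredoxin genes, 4 superoxide and peroxide enzymes or 8 tested heme and iron genes passed. Of 8 NRF2 partners and repressors 1 rose, of 11 other NRF2 targets 1 rose, of 12 glutathione genes 1 rose and 1 fell, of 9 zinc and metal genes 1 rose, and of 8 glucocorticoid-responsive genes 1 fell.

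Maff, a small MAF protein that partners NRF2 or represses its sites, rose from 1.46 to 2.33 CPM in RA-PBS to 9.1, 4.33, 4.35 and 4.16 CPM in O2-PBS (log2 fold change 1.61 ± 0.28, edgeR adjusted p = 0.00342). O2-PBS animal 5, which was the highest in Mt1 and Mt2, was also the highest in Maff. O2-IC100 retinas without animal 10 had 2.35 to 2.88 CPM, and Maff did not pass as lower than in O2-PBS in the fit of 11 animals. It did pass with DESeq2, in the fit of these groups alone, with the lens covariate, without any 1 of RA-PBS animals 1 to 4, and without RA-PBS animals 2, 3 and 4 together. Osgin1, an NRF2 target, rose from 0.617 to 1.44 CPM in RA-PBS to 1.61 to 2.89 CPM in O2-PBS (1.14 ± 0.32, edgeR adjusted p = 0.0438). It did not pass without O2-PBS animal 5 or with a Y-linked covariate.

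Slc39a8, a zinc importer, rose from 4.06 to 6.23 CPM in RA-PBS to 9.49 to 12.7 CPM in O2-PBS (1.01 ± 0.17, edgeR adjusted p = 0.00316). Ggt5, a gamma-glutamyl transferase that acts on glutathione conjugates, rose from 1.26 to 2.16 CPM to 2.6 to 4.34 CPM (1.24 ± 0.25, edgeR adjusted p = 0.00801). Both were also higher in O2-IC100 than in RA-PBS, by 0.73 ± 0.18 for Slc39a8 (edgeR adjusted p = 0.0807) and 1.11 ± 0.26 for Ggt5 (edgeR adjusted p = 0.069), the only 2 of 71 to pass there (2.82%, beside 1.56% of all genes). Neither passed there in the fit of only these groups, without RA-PBS animal 2, O2-PBS animal 6 or 8, or any 1 of O2-IC100 animals 9, 11 and 12. In animal 10 both were low, at 1.64 CPM and 0.505 CPM, as were endothelial markers (40.3 CPM) and rod photoreceptor markers (9780 CPM). A link of either gene to a cell type was not tested.

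Gstm5, a glutathione transferase, fell from 28.1 to 52.2 CPM in RA-PBS to 18.3 to 22.8 CPM in O2-PBS (-0.85 ± 0.18, edgeR adjusted p = 0.0112). Tsc22d3, a glucocorticoid-induced leucine zipper protein, fell from 29.3 to 60.4 CPM to 21.5 to 26.9 CPM (-0.71 ± 0.2, edgeR adjusted p = 0.0408), and it did not pass without RA-PBS animal 4 or O2-PBS animal 5. Leaving out single animals gave 3 to 5 pathway genes that passed as higher and 1 to 5 as lower in O2-PBS, with 1 lower without RA-PBS animal 4 or O2-PBS animal 5, 5 without RA-PBS animal 2, and 3 without RA-PBS animal 1 or 3 or O2-PBS animal 8. For O2-IC100 against O2-PBS, 0 of 71 genes passed by edgeR, beside 0.947% of all genes, and 2 passed by DESeq2 (Maff and Sod3, both lower, Sod3 being named after its values were seen). The same 2 passed by edgeR with the lens covariate and in the fit of these groups alone, and they passed together with Tsc22d3, which was higher, without RA-PBS animal 4 and without RA-PBS animals 2, 3 and 4. O2-IC100 retinas without animal 10 had 28 to 34.1 CPM of Gstm5 and 34.8 to 38.8 CPM of Tsc22d3. With all 12 animals 0 of 71 passed by edgeR in each comparison. DESeq2, which gave no p for 16 of the 71, called 3 (Maff, Ggt5 and Tsc22d3) for O2-PBS against RA-PBS and 0 in both others.

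**Figure D5:**
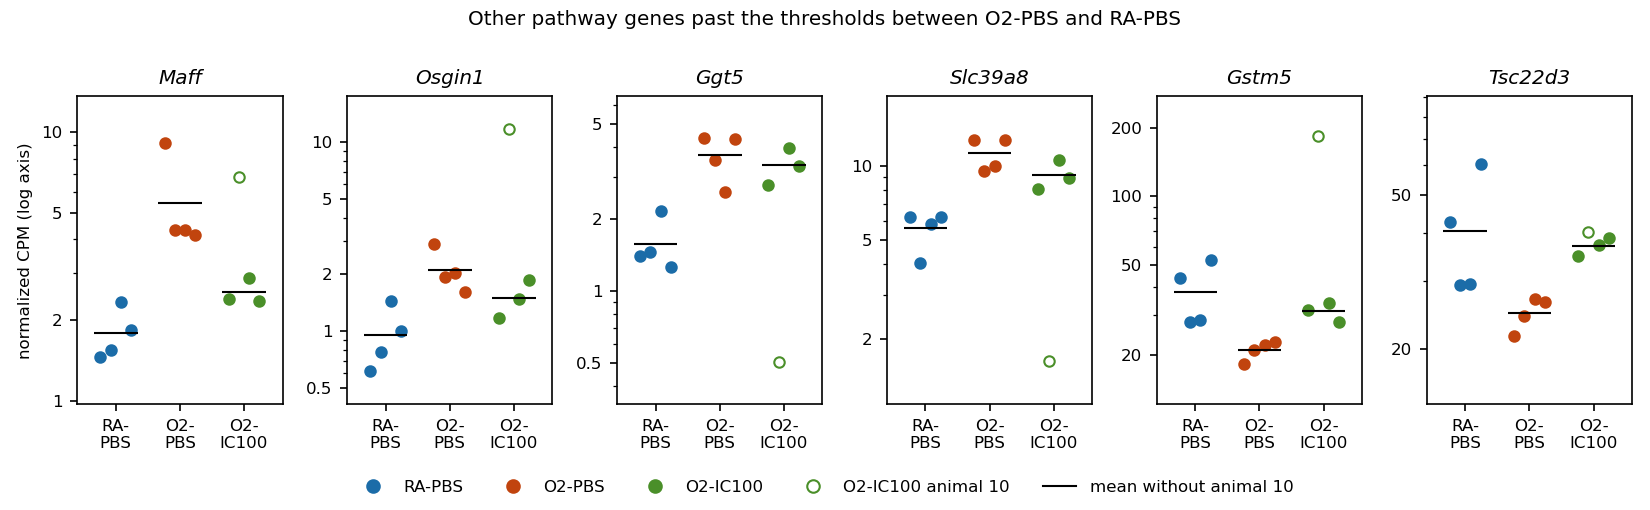
Normalized CPM (log axis, a separate range for each gene) of the 6 pathway genes past the thresholds between O2-PBS and RA-PBS, in each of 12 retina libraries, with the open circle for O2-IC100 animal 10 and bars for group means without it. Maff, Osgin1, Ggt5 and Slc39a8 are higher and Gstm5 and Tsc22d3 lower in all 4 O2-PBS retinas than in any RA-PBS retina.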

How the data were processed

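Retinal polyA RNA of 12 mice was sequenced as paired-end reads. The authors pseudoaligned the reads to GRCm39 with Kallisto and summed transcripts per gene with tximport, and deposited the expected counts, of which 26.2% were not whole (to 0.01). Totals were 14906970 to 24437916, and low counts limit precision. Counts were rounded, filtered with filterByExpr, scaled by TMM and fitted with edgeR 4.0.16 (R 4.3.3) by its robust quasi-likelihood test with Benjamini-Hochberg adjustment, 1 coefficient per group, over all 12 animals (16489 genes) and without O2-IC100 animal 10 (16688 genes). The SE is the absolute log2 fold change divided by the square root of F. The methods of the study name DESeq2, which was run here as an alternative (1.42.0), as was limma 3.58.1. Symbols came from a reference table that matched 35374 of 36131 genes. Promoters came from RefSeq (GRCm38.p6), a different build from the counts.

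The members and gene lists were chosen with earlier results of these data known. All members were named. Other list genes were named where past the thresholds in either fit, and for Nqo1 also the 3 genes with the highest correlation. Alternatives were other normalizations, filters and tools, covariates for Y-linked genes and lens markers, fits of only the groups compared, and leaving out each animal. The lens covariate without animal 10 and the fit without RA-PBS animals 2, 3 and 4 were chosen after seeing the data. The scripts were tested on simulated data.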

Additional observations from a re-analysis of the deposited data

Results flagged for a closer look

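A value was singled out where the gap to the nearest animal, divided by the range of its group of 4, exceeded Dixon's critical value for that size. This was met in 11 of 30 groups of member values, and 9 of the 11 were O2-IC100 animal 10. Chance gives about 1 in 20 for independent groups. These groups share libraries and scaling, so the count cannot be set against that rate. In that animal the values were 327 CPM for Mt1, 92.5 CPM for Mt2, 64.9 CPM for Mt3, 49.1 CPM for Nfe2l2, 3680 CPM for Hmox1, 49.4 CPM for Nqo1, 299 CPM for Gclc, 119 CPM for Gclm and 108 CPM for Txnrd1, each above the rest of its group. These values depend on the low TMM factor of animal 10. Mt1 was 126 CPM in O2-PBS animal 5, where the nearest animal had 58.4 CPM. Mt3 was 33.2 CPM in RA-PBS animal 4, where the nearest had 16.2 CPM. S100b, the gene most like Mt3 over 11 libraries (Pearson r = 0.95, a description), was 28 CPM in RA-PBS animal 4.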

How the results depend on the processing

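Of 1380 member values under alternatives, 1368 had a p, and the other 12 were DESeq2 values with all 12 animals. Of the 1368, 1343 stayed on their side of the thresholds and 25 passed that had not, 4 of them with another sign. In all, 75 of 1380 had another sign, 64 of them with neither p under 0.05. Nqo1 in O2-PBS against RA-PBS without animal 10 passed under every alternative run. The cause of the changes below was not tested.

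With all 12 animals no member passed in the 3 comparisons. The lens covariate gave 2 for O2-PBS against RA-PBS (Nfe2l2 and Hmox1, the latter at 4.64) and 2 for O2-IC100 against RA-PBS (Hmox1 and Gclm), and turned Hmox1 in O2-IC100 against O2-PBS to -2. The lens covariate also turned Nqo1 in O2-PBS against RA-PBS to 0.17. It called 2450 of all 16489 genes in that comparison, so its calls there were not particular to the genes listed. Counts in this section without such a share beside them describe the setting and are not read as a result about the listed genes. The groups compared alone gave 1 for O2-PBS against RA-PBS, where 867 of all 16165 genes passed. The Y-linked covariate gave 4 for O2-IC100 against O2-PBS, and leaving out single animals gave 0 to 1 for O2-PBS against RA-PBS. Leaving out single animals moved the log2 difference of O2-IC100 from O2-PBS between -0.25 and 0.14 for Nfe2l2 and between -1.27 and 5.65 for Hmox1, and that from RA-PBS between -1.7 and 5.57 for Hmox1 and between -0.17 and 2.38 for Nqo1, the lowest being without animal 10. Of the 71 pathway genes, none passed by edgeR in the main fit of all 12 animals. The Y-linked covariate gave 30 higher for O2-IC100 against O2-PBS. The lens covariate gave 8 higher and 1 lower for O2-PBS against RA-PBS, beside the 2450 genes above. For O2-IC100 against RA-PBS it gave 14 higher and 2 lower. The groups compared alone gave 4 higher and 2 lower for O2-PBS against RA-PBS, beside the 867 genes above. Upper quartile scaling gave 1 higher there, where 175 of all 16489 genes passed.

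Without animal 10, O2-PBS against RA-PBS had 2 members past under the Y-linked covariate (Mt3 and Nqo1), and 2 (Hmox1 and Nqo1) under the lens covariate and without RA-PBS animals 2, 3 and 4, where Hmox1 was 3.15 and 3.75. O2-IC100 against O2-PBS had 1 with DESeq2 (Nqo1), 2 with the lens covariate, 2 in the groups compared alone, 2 without RA-PBS animals 2, 3 and 4 (Hmox1 and Nqo1 each time), and 0 to 1 without single animals, with Nqo1 passing without RA-PBS animal 1, 2 or 4. O2-IC100 against RA-PBS had 1 without RA-PBS animals 2, 3 and 4 (Hmox1 at 2.48) and 0 to 1 without single animals (Hmox1 at -2.1 without RA-PBS animal 1). Srxn1 there turned to -0.28 with the lens covariate and -0.33 without RA-PBS animals 2, 3 and 4. Library totals alone moved the median of all genes with 12 animals to -0.25 for O2-IC100 against O2-PBS and -0.18 against RA-PBS. No paired analysis was possible because the animals are numbered 1 to 12 and the groups share no numbers. Nqo1 rests on 30 to 76 counts per library apart from animal 10, which limits its precision.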
